A study of Mus musculus with 12 samples.

Results

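The subunits of the oxidative phosphorylation machinery that are encoded in the nucleus were followed in mouse glomerular RNA. Members were taken by name, as all gene symbols listed in every library that start with Nduf, Uqcr, Cox4, Cox5, Cox6, Cox7, Cox8 or Atp5, leaving out names of pseudogenes (names with -ps, of which there were 0). This gave 85 of 13475 genes. By symbol they were 38 complex I genes, 8 complex I assembly factors (Ndufaf1 to Ndufaf8), 8 complex III genes, 14 complex IV genes, 15 complex V genes, and Atp5s and Atp5sl, which are not subunits of the core ATP synthase. Genes of the same machinery with other names, such as Cyc1, Cycs and the succinate dehydrogenase genes, were not members and are given below for comparison, and the subunits encoded in mitochondrial DNA were not analysed here.

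Oxidative phosphorylation is the last stage of respiration in the inner mitochondrial membrane. Complex I takes electrons from NADH, complex III passes them to cytochrome c, complex IV (cytochrome c oxidase) hands them to oxygen, and complex V (ATP synthase) uses the proton gradient so formed to make ATP. In the kidney the proximal tubule is known for its dense mitochondria and its reliance on respiration.

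The libraries came from 12 C57BL/6 mice in 4 groups of 3. Controls and mice lacking DACH1 in podocytes were taken at baseline, at 10 weeks of age, and mice of both genotypes were taken 10 days after streptozotocin (STZ), a beta cell toxin given intraperitoneally at 50 µg/g per day on 5 days to induce type I diabetes. DACH1 is a nuclear regulator of transcription, and the promoter that drives the podocyte-specific deletion is not given in the sources used here. The 3 STZ controls carry "hetN" in their titles, which the labels do not explain, and are otherwise labelled as controls. Glomeruli were collected from each mouse after perfusion with magnetic beads, so that each library holds RNA of podocytes, endothelial, mesangial and any attached cells together. In such bulk RNA, more cells of a type and more RNA per cell cannot be told apart.

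The baseline libraries held 2.26e+07 to 2.49e+07 counts and the STZ libraries 6.61e+07 to 7.86e+07. In CPM, counts relative to the scaled library total, Dach1 itself was at 106 to 188 in the 6 control libraries and at 47.2 to 67.0 CPM in the 6 knockout libraries. All 15 podocyte markers were present, with a summed level of 22099 to 40120.1 CPM over the 12 libraries. All 24 proximal tubule markers, transporters and enzymes such as Slc34a1, Lrp2 and Miox, were present too, none at 0 in any library. They summed to 3517 to 6589 CPM in baseline controls, 2387 to 26525 in baseline knockouts, 2524 to 12483 in controls after STZ and 3213 to 11726 in knockouts after STZ. Knockout baseline replicates 2 and 3, control STZ replicate 3 and knockout STZ replicate 1 carried the highest tubule levels. Their mean log2 CPM over the 24 genes was 7.81, 8.66, 7.98 and 7.80, against 5.58 to 7.10 in the other 8 libraries.

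Respiratory genes have processed copies elsewhere in the mouse genome, and how reads of such copies were counted is not given in the sources used here. All 85 members passed the filter on low counts in each comparison, so no member was lost to it. Together they took 0.809% to 1.45% of the counts of a library. CPM below are scaled by TMM over all 12 libraries. Per kilobase of the principal transcript, the median level over the 12 libraries was highest in complex V (215 CPM per kilobase as the median of its genes), followed by complex IV (175), complex III (146) and complex I (77.8). The complex I assembly factors lay lower, at a median of 12.7 CPM per kilobase. The most abundant members by length were Atp5b, the catalytic beta subunit of ATP synthase (588 CPM per kilobase), Atp5a1, its alpha subunit (401), and Cox4i1, the common isoform of a regulatory subunit of complex IV (390). The lowest was Cox4i2, its paralogue, at 4.37 CPM per kilobase. Within a member the highest library stood a median of 1.94-fold above the lowest.

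The complexes varied together from library to library. The mean log2 CPM of the 38 complex I genes was 5.95, 6.02 and 5.93 in the 3 baseline controls, 5.74, 6.26 and 6.51 in the baseline knockouts, 5.95, 5.96 and 6.50 in the STZ controls and 6.59, 5.90 and 6.09 in the STZ knockouts, in replicate order. Complex III stood at 6.70, 6.88 and 6.69, then 6.49, 7.19 and 7.49, then 6.78, 6.76 and 7.44 and finally 7.47, 6.68 and 6.86 in the same groups. Complex V stood at 7.30, 7.39 and 7.30 in baseline controls, 7.14, 7.69 and 7.89 in baseline knockouts, 7.32, 7.31 and 7.92 in controls after STZ and 8.02, 7.26 and 7.46 in knockouts after STZ. In all of them knockout baseline replicate 1 was the lowest library, and the 4 libraries with the highest tubule levels were also the 4 highest libraries of complexes I, III, IV and V. The 3 baseline controls lay close together (SD 0.04 for complex I), while each of the other 3 groups was spread (SD 0.39, 0.31 and 0.36), and the groups overlapped.

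**Figure D1:**
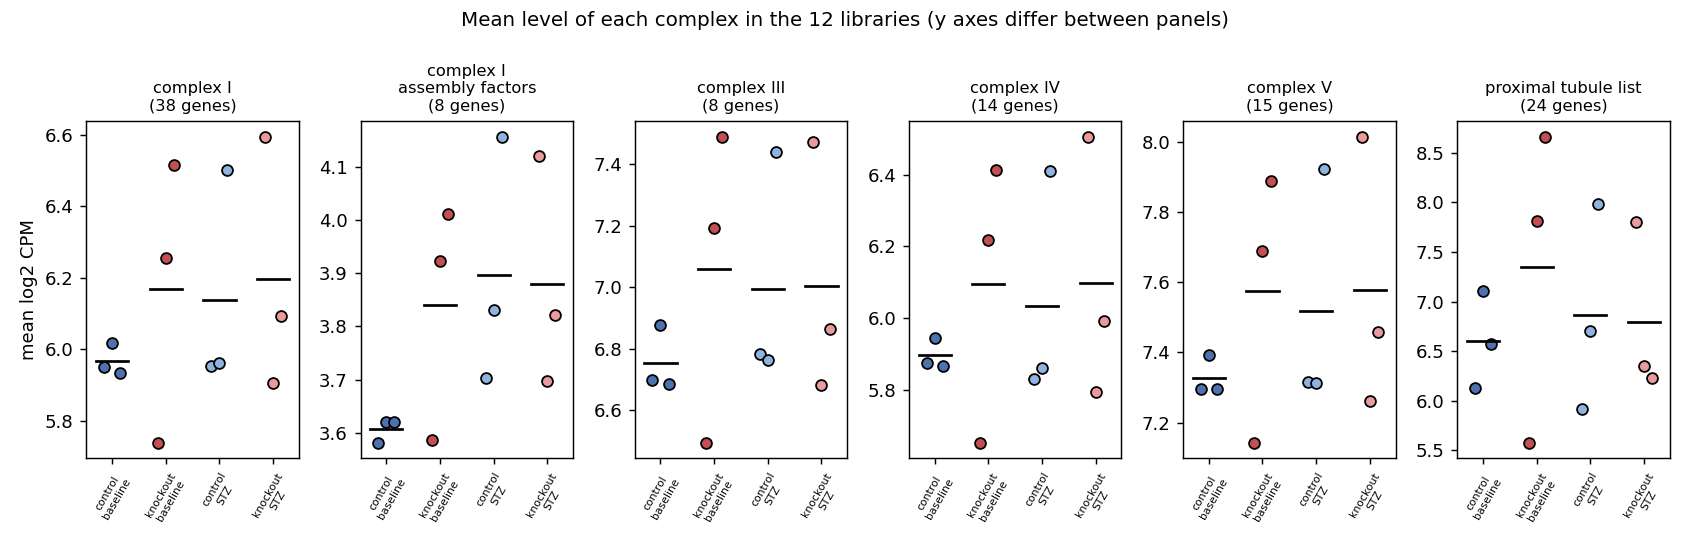
Mean log2 CPM of the genes of each complex and of the 24 proximal tubule markers in each library, by group. Points are libraries, bars are group means, and the y axes differ between panels. Knockout baseline replicates 2 and 3, control STZ replicate 3 and knockout STZ replicate 1 stand high in the panels of complexes I, III, IV and V and in the tubule panel.

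The relation to the tubule level was measured gene by gene, as the slope of a gene on the proximal tubule mean in 1 fit over the 12 libraries that also held the 4 groups, so that only differences between mice of the same group entered. A slope of 1 means that a gene changed by the same factor as the tubule mean, and a slope of 0 that it did not change with it. Of the 85 members, 76 had a slope past the threshold (adjusted p under 0.05, edgeR's quasi-likelihood test with Benjamini-Hochberg adjustment over all genes), all of them positive, and the median slope of the 85 was 0.28. Of all 13475 genes, 24.4% passed, 16.8% upwards and 7.6% downwards. DESeq2 called 75 members (30.3% of all genes). By complex, 35 of 38 complex I genes rose with the tubule mean (median slope 0.27), 8 of 8 in complex III (0.33), 11 of 14 in complex IV (0.32), 14 of 15 in complex V (0.30), 6 of 8 assembly factors (0.18) and both Atp5s and Atp5sl. With the baseline libraries alone 54 members passed (of all genes 11.7% passed, 8.92% upwards), and with the STZ libraries alone 33 did (of all genes 7.51%, 6.27% upwards). The sign was positive in both arms for 81 of the 85. Leaving out the 2 libraries farthest from the median tubule level, knockout baseline replicate 3 and control STZ replicate 3, left 32 members called (of all genes 8.65% passed, 7.04% upwards). The member levels and the tubule mean were read from the same libraries, and the slope describes levels that moved together.

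Cox5a, a structural subunit of complex IV (chromosome 9, 57517328 to 57532427, GRCm38.p6), had the steepest slope, 0.46 (SE 0.04, adjusted p = 3.64e-05, edgeR). It was at 98.8, 141 and 107 CPM in baseline controls, 90.4, 171 and 228 in baseline knockouts, 110.3, 118 and 206 in controls after STZ and 212, 113 and 130.3 in knockouts after STZ. The 4 high libraries were at 171 CPM or more and the other 8 at 141 or less. Complex III followed in the small subunit Uqcr10 (0.44, 63.6, 75.9 and 63.6 CPM in baseline controls and 54.0, 101 and 127 in baseline knockouts) and in Uqcrfs1, the Rieske iron-sulfur protein that takes electrons from ubiquinol (0.42, 102, 129 and 104 and 88.3, 160.0 and 207 CPM). Uqcrc1, a core protein of complex III, had a slope of 0.27. In complex I, Ndufs1, the largest iron-sulfur subunit, had a slope of 0.30 (adjusted p = 9.66e-05, edgeR), Ndufv1, which binds the NADH oxidising flavin, 0.26, Ndufv3 0.40, Ndufa10 0.33 and Ndufab1, the mitochondrial acyl carrier protein, 0.37. After Cox5a, the steepest complex IV genes were Cox7a1 (0.40), Cox7c (0.40), Cox7b (0.38) and Cox6c (0.37). In complex V the catalytic pair had lower slopes than these, 0.23 for Atp5a1 and 0.28 for Atp5b. For Atp5a1 the adjusted p was 0.0653 (edgeR) without control STZ replicate 3. Atp5j2, a membrane subunit, had a slope of 0.32. With the STZ libraries alone Ndufs1, Ndufv1, Uqcrc1, Atp5a1 and Atp5b did not pass (adjusted p of 0.0577, 0.0828, 0.137, 0.105 and 0.0632, edgeR). Ndufv1, Uqcrc1 and Atp5a1 also did not pass without knockout baseline replicate 3 and control STZ replicate 3. Atp5a1 did not pass with the baseline libraries alone either (adjusted p = 0.0799, edgeR). Cox5a, Uqcr10 and Uqcrfs1 passed in all 18 alternative settings. Atp5b ran from 1123, 1218 and 1129.7 CPM in baseline controls and 1003, 1524 and 1663 in baseline knockouts to 1121, 1125 and 1622 in controls after STZ and 1654, 1026 and 1050.1 in knockouts after STZ. Of the complex I assembly factors, which act on the enzyme while it is built, Ndufaf6 (0.29), Ndufaf2 (0.23), Ndufaf8 (0.22), Ndufaf7 (0.19), Ndufaf4 (0.18) and Ndufaf5 (0.13) rose, while Ndufaf1 had a slope of 0.09 and Ndufaf3 of 0.06 without passing. Each of these 6 calls was lost with the STZ libraries alone, and again when knockout baseline replicate 3 and control STZ replicate 3 were both left out. With the baseline libraries alone Ndufaf2, Ndufaf5, Ndufaf6, Ndufaf7 and Ndufaf8 did not pass (adjusted p of 0.0556 to 0.325, edgeR). Of 18 alternative settings, Ndufaf5 passed in 4 (DESeq2, no filter on low counts, and without control STZ replicate 2 or knockout baseline replicate 1), with an adjusted p of up to 0.404 (edgeR) in the others. Ndufaf2 passed in 10 of 18 (adjusted p up to 0.344, edgeR) and was lost without control STZ replicate 1 or 3, knockout STZ replicate 1, or knockout baseline replicate 1 or 3. Ndufaf8 passed in 11 (up to 0.205, edgeR) and was lost without control STZ replicate 3, knockout STZ replicate 1, or knockout baseline replicate 1 or 2. Ndufaf4 passed in 14 and was lost without knockout baseline replicate 1 or 3, Ndufaf7 passed in 14 and was lost without knockout baseline replicate 1, and Ndufaf6 passed in 15.

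**Figure D2:**
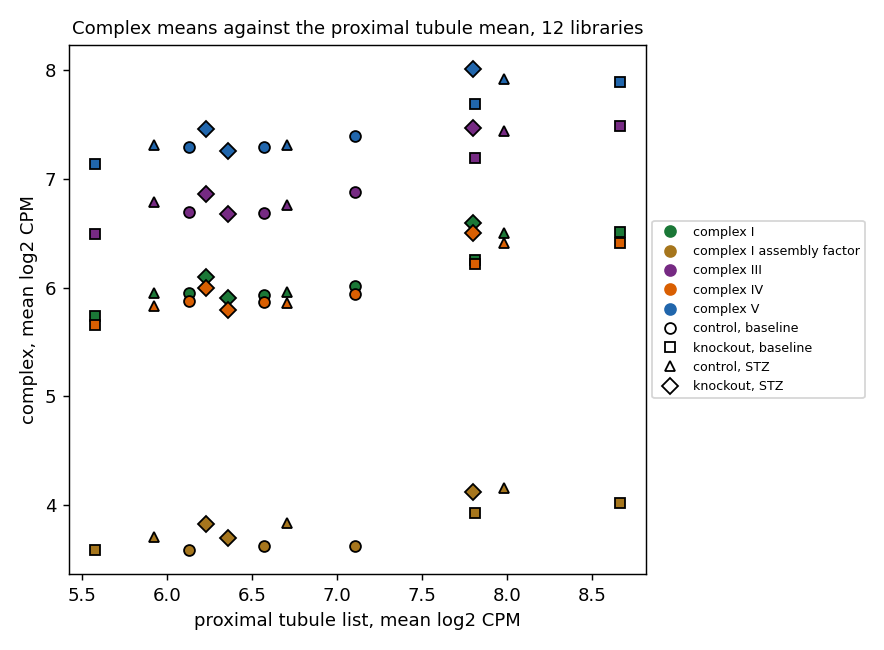
Mean log2 CPM of each complex (y axis) against the mean log2 CPM of the 24 proximal tubule markers (x axis) in the 12 libraries, with colour for the complex and shape for the group. The libraries with a tubule mean of 7.80 or more stand highest in complexes I, III, IV and V.

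Among the 9 members that did not pass were Ndufs5, Ndufaf1, Ndufaf3, Atp5g2, Cox6b2, Cox7a2l, Cox4i2 and Ndufa4l2. Ndufs5, an accessory subunit of complex I, had a slope of 0.17 with a wide standard error (0.10, adjusted p = 0.242, edgeR). The smallest were Ndufa4l2 (-0.0022, SE 0.04), Cox7a2l (-0.05, SE 0.06) and Cox4i2 (-0.06, SE 0.09). A slope that did not pass does not show that a gene was level. Several of these 9 are paralogues of members that did pass, although the difference between the slopes of paralogues was not tested.

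**Figure D3:**
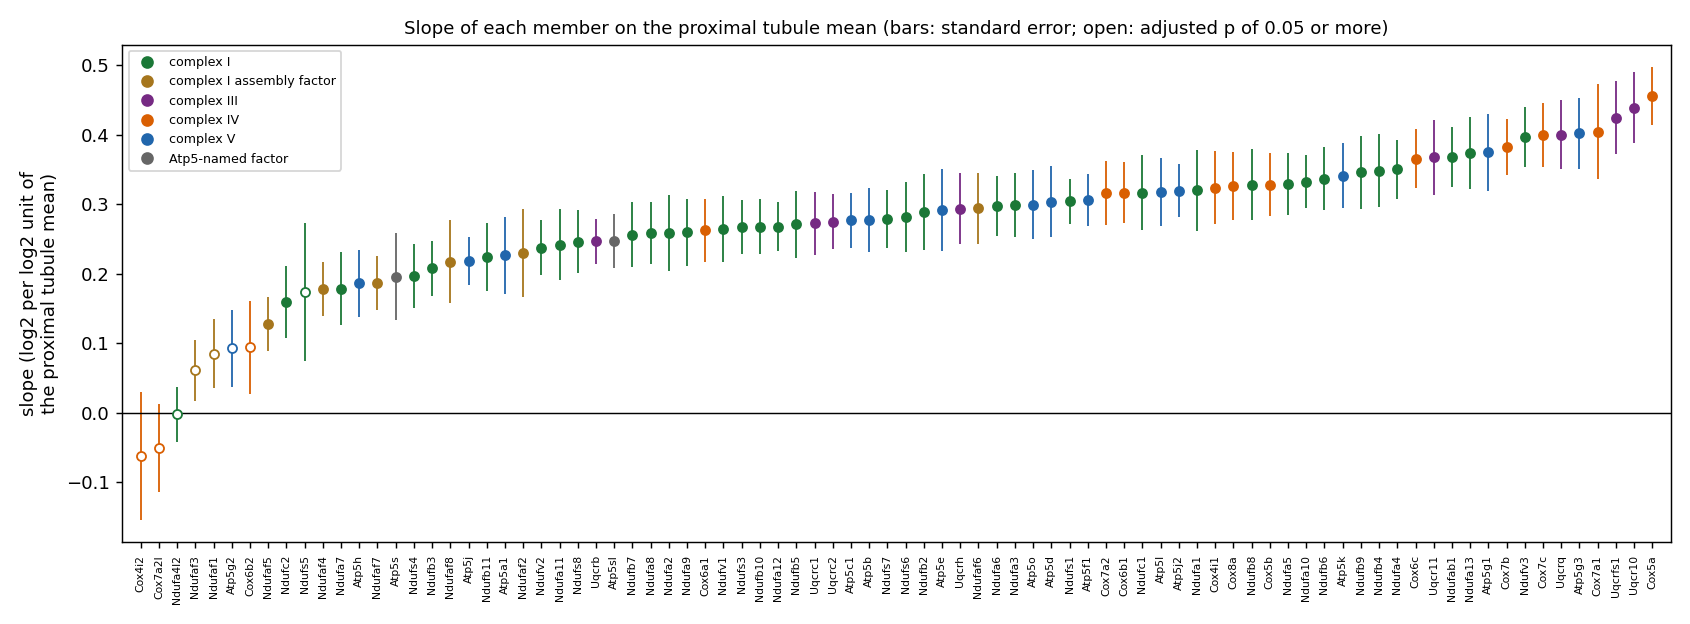
Slopes of 84 of the 85 members on the proximal tubule mean, each with its standard error, ordered by slope and coloured by complex. Filled points passed an adjusted p of 0.05 (76 members) and open points did not (8 members). Cox5a is at the upper end (0.46) and Cox4i2 at the lower end (-0.06).

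Ndufa4 and Ndufa4l2 encode related small proteins. Ndufa4 was named for complex I and is now placed with complex IV, and Ndufa4l2 is known as a hypoxia-induced paralogue that is rich in pericytes. Ndufa4 had a slope of 0.35 and was at 166, 183 and 171 CPM in baseline controls, 142, 234 and 299 in baseline knockouts, 179, 200.4 and 313 in controls after STZ and 302, 181 and 224 in knockouts after STZ. Ndufa4l2 (chromosome 10, 127509274 to 127517154, GRCm38.p6) was at 32.3, 35.1 and 32.5 CPM in baseline controls, 28.8, 27.5 and 24.6 in baseline knockouts, 21.2, 24.1 and 22.7 in controls after STZ and 22.8, 21.6 and 19.6 in knockouts after STZ. Unlike Ndufa4, it was ordered by group, with all baseline controls above all baseline knockouts and these above all STZ libraries. Per kilobase, Ndufa4l2 made up 9.98, 9.85 and 9.77% of the pair in baseline controls and 10.3, 6.25 and 4.47% in baseline knockouts. In the STZ libraries it made up 3.95% to 6.40%, which overlaps the range of the baseline knockouts. The share depends on the level of Ndufa4 as well. Cox4i1 and Cox4i2 encode the isoforms of 1 complex IV subunit, Cox4i2 being the form known from lung and from pericytes. Cox4i1 ran from 248 to 511 CPM with a slope of 0.32. Cox4i2 was at 6.07, 3.39 and 4.02 CPM in baseline controls, 3.22, 2.99 and 2.76 in baseline knockouts, 3.67, 2.49 and 3.23 in controls after STZ and 3.15, 2.63 and 2.66 in knockouts after STZ, and per kilobase made up 0.633% to 2.18% of the pair.

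The heart and muscle isoform Cox7a1 was low (2.47 to 6.41 CPM, 3.08% to 5.63% of the pair with Cox7a2 per kilobase) and had a slope of 0.40, beside 0.32 for Cox7a2. Cox7a2l is known for a part in joining complexes III and IV into supercomplexes, and whether its form in these mice does so was not examined. Cox7a2l was at 186, 147 and 194 CPM in baseline controls and 209, 153 and 149 in baseline knockouts. Its highest library was knockout baseline replicate 1, the lowest library of complexes I, III, IV and V. It has 2 RefSeq transcripts and 7 of its 12 values end in 0.5, so how its isoforms enter the value is not known. Cox6b2, an isoform known from testis with 6 RefSeq transcripts and 6 values ending in 0.5, was at 1.92 to 3.30 CPM, against 128 to 245 CPM for Cox6b1, whose slope was 0.32. The complex IV subunits Cox6a1 (0.26) and Cox8a (0.33), rose with the tubule mean, and Cox6a2 and Cox8b were not among the members. Atp5g1, Atp5g2 and Atp5g3 encode the same mature c subunit of the ATP synthase ring with different import signals. Atp5g3 had a slope of 0.40 and Atp5g1 of 0.37, whereas Atp5g2 had one of 0.09 (adjusted p = 0.261, edgeR). With the STZ libraries alone Atp5g3, Atp5g1, Cox4i1 and Cox6a1 did not pass (adjusted p of 0.0542, 0.0578, 0.0511 and 0.138, edgeR). Cox7a1 did not pass with the baseline libraries alone (adjusted p = 0.0828, edgeR). Without knockout baseline replicate 3 and control STZ replicate 3, Cox4i1, Cox6a1 and Cox8a did not pass (adjusted p of 0.0538, 0.0805 and 0.0580, edgeR). Per kilobase, Atp5g3 made up 45.5% to 62.0% of the c subunit transcripts, Atp5g2 29.0% to 47.6% and Atp5g1 6.94% to 8.97%. These shares depend on the lengths used, 718.5 bases for Atp5g3, 586 for Atp5g2 and 2675.5 for Atp5g1. Before division by length the medians over the 12 libraries were 191, 122 and 103 CPM in that order. Which transcripts of Atp5g1 were present was not examined. The share of Atp5g2 was highest in knockout baseline replicate 1 and lowest in knockout baseline replicate 3.

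**Figure D4:**
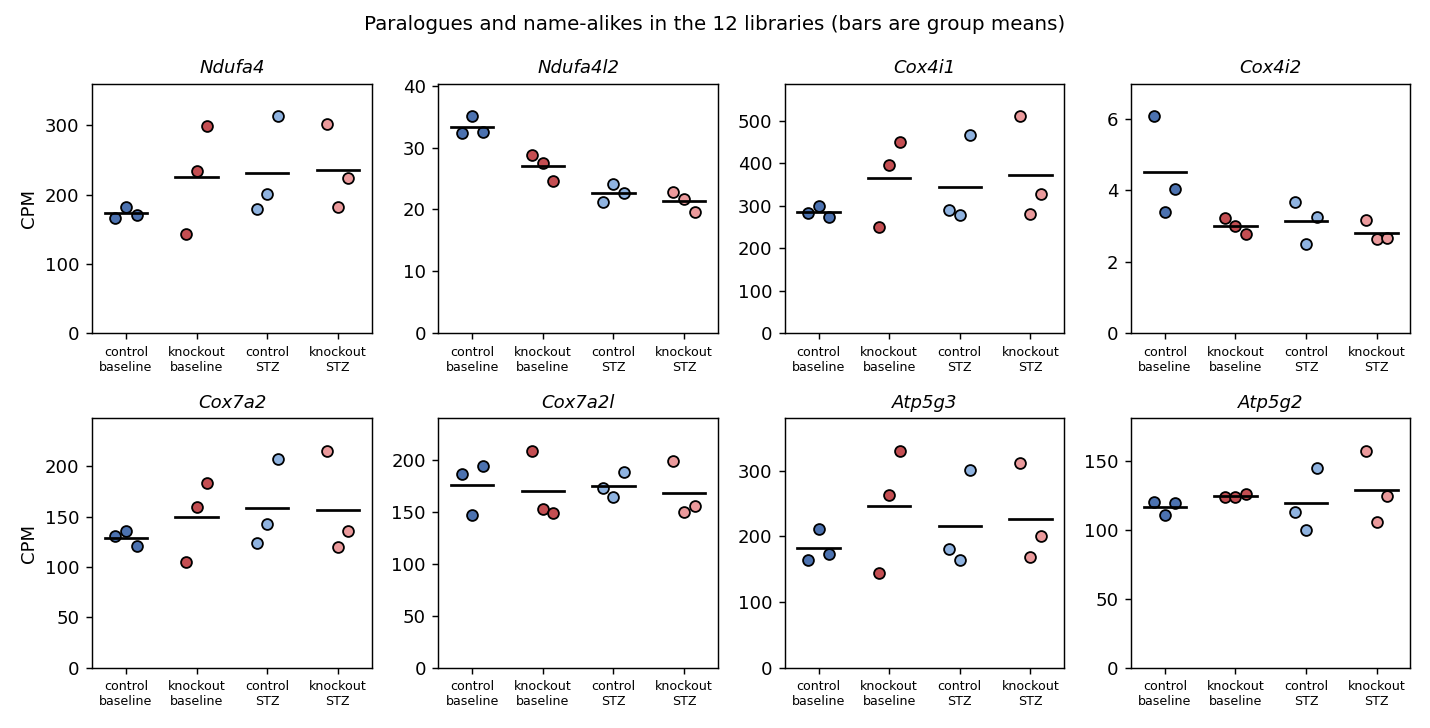
CPM of 4 pairs of related members in the 12 libraries by group, with bars for group means and axes from 0. Ndufa4, Cox4i1, Cox7a2 and Atp5g3 spread widely within groups, while Ndufa4l2 stands at 32.3 to 35.1 CPM in baseline controls and at 19.6 to 24.1 CPM after STZ.

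Other genes of respiration were read from lists. All 4 succinate dehydrogenase genes of complex II rose with the tubule mean (median slope 0.29). Sdhb at 0.40 and Sdha at 0.28 had the smallest p among them. Cyc1, a subunit of complex III, and Cycs, which carries electrons to complex IV, rose too (0.42 as the mean of both). So did a list of 4 other genes, Usmg5, 2010107E04Rik, Atpif1 and Minos1 (median 0.34). There Usmg5 at 0.42 and 2010107E04Rik at 0.34 had the smallest p. In the citric acid cycle 16 of 16 genes rose (0.26, with Dld at 0.26 and Suclg2 at 0.39 having the smallest p). Of 37 further assembly factors of the respiratory chain 20 rose (0.14, with Ecsit at 0.31 and Coa6 at 0.31 having the smallest p), and of 13 glycolysis genes 7 did (0.18, with Tpi1 at 0.41 and Gapdh at 0.33 having the smallest p). Of 14 regulators of mitochondrial biogenesis 5 rose and 1 fell, among the former Esrra, the nuclear receptor ERR alpha (0.40, adjusted p = 6.39e-05, edgeR), and Ppargc1a, its coactivator PGC-1 alpha (0.55, adjusted p = 0.000271, edgeR). Of 16 markers of later tubule segments 12 rose with the proximal tubule mean (median slope 0.42). Against this, 2 of 15 podocyte markers and 7 of 12 endothelial markers fell (medians -0.11 and -0.17), and of 10 mesangial markers 1 rose and 2 fell.

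Since 76 members moved together, their promoters were searched for the letters of motifs known from respiratory genes. Of the 85 members 72 matched a promoter in the RefSeq table (GRCm38.p6, 250 bases before to 50 after each start it lists for a gene, 27025 genes). The palindrome of the respiratory factor NRF1, searched like all motifs on both strands and shown in capitals in the first windows below, was in 17 of the 72 (23.6%), against 5.19% of all promoters in the table and 10.8% of the 10657 promoters of genes measured here. It was in 15 of 66 members that rose with the tubule mean and in 2 of 6 that did not pass. The YY1 core AAGATGGCG was in 9 of 72 (12.5%, against 1.64% of all and 3.39% of measured genes), and the ETS core CCGGAAG in 16 (22.2%, against 9.93% and 18.8%). The ERR element TNAAGGTCA was in 2 (2.78%, against 1.43% and 0.957%), Atp5g3 and Ndufb4, and the GC box GGGCGG in 32 (44.4%, against 38.2% and 66.7%). These motifs do not contain one another, and a match is a run of letters, not a bound site. Of the matches, 5 windows show the NRF1 palindrome, at 3 members that rose with the tubule mean and at the 2 that did not pass, 1 shows the YY1 core and 1 the ERR element. They run 5′ to 3′ on the strand of the gene and end before a start that the table lists, which for Atp5j and Atp5g3 lies inside the annotated span of the gene. Capitals mark the match named on the line, and other matches in a window are in lower case.
Ndufb4, NRF1 palindrome, chr16:37654398-37654487, minus strand: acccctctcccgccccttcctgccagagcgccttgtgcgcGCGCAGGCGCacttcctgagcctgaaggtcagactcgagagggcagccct
Atp5k, NRF1 palindrome, chr5:108434400-108434489, minus strand: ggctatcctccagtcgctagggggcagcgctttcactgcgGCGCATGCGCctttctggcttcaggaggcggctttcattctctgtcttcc
Cox6a1, NRF1 palindrome, chr5:115349026-115349115, minus strand: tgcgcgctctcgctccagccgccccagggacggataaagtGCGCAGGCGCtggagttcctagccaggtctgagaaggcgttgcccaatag
Atp5g2, NRF1 palindrome, chr15:102671048-102671129, minus strand: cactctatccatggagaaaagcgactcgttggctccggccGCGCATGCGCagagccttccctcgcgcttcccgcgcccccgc
Ndufs5, NRF1 palindrome, chr4:123718235-123718324, minus strand: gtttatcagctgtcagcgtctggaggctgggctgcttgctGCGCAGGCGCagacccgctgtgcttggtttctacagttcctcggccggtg
Atp5j, YY1 core, chr16:84835016-84835104, minus strand: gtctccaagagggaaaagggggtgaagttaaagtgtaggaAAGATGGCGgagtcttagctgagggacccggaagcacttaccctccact
Atp5g3, ERR element, chr2:73911330-73911418, minus strand: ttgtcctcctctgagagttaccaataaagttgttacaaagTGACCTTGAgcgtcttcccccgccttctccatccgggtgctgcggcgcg
The NRF1 palindrome was thus also present at Atp5g2 and Ndufs5, whose slopes did not pass. Cox4i2 and Ndufa4l2 had no entry in the promoter table.

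At baseline, most members had a small positive difference in knockout glomeruli, and none passed the test. The question here was which genes depend on DACH1 in podocytes without diabetes. The count of members called was 0 of 85 (edgeR, 0.23% of all genes), and DESeq2 called 1, Ndufaf1 (1.63% of all genes). In edgeR 4 of 85 had an unadjusted p under 0.05 (Ndufaf1, Ndufa4l2, Ndufs4 and Ndufaf5), against 6.92% of all genes. The log2 difference was positive for 79 of 85 (52.4% of all genes), with a median of 0.27, while the median over all genes was 0.01. Since the members varied together between libraries, their signs are not separate observations. By complex the medians were 0.26 in complex I, 0.35 in complex III, 0.34 in complex IV, 0.28 in complex V and 0.25 in the assembly factors. The 24 proximal tubule markers had a median of 1.03 in the same direction. With the tubule mean in the fit, the median over the members was 0.06 and the medians of complexes I, III, IV and V were 0.03, 0.07, 0.08 and 0.06, with 0 members called (0.408% of all genes). The median rested on single mice: it was 0.09 without knockout replicate 3 and 0.45 without knockout replicate 1.

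Ndufaf1, an early assembly factor of complex I (chromosome 2, 119655446 to 119662839, GRCm38.p6), was at 8.15, 8.44 and 8.78 CPM in baseline controls and 11.98, 11.96 and 12.18 in baseline knockouts. The groups did not overlap, and the knockout values lay within 11.96 to 12.18 CPM while the tubule mean of these 3 libraries ran from 5.58 to 8.66. Its log2 difference was 0.51 (SE 0.10, adjusted p = 0.245 in edgeR and 0.0339 in DESeq2), and 0.50 with the tubule mean in the fit (adjusted p = 0.216, edgeR). Leaving out 1 library at a time gave adjusted p of 0.115 to 0.774 (edgeR). After STZ it was at 8.81, 11.60 and 13.02 CPM in controls and 13.14, 11.43 and 11.96 in knockouts, where the groups overlapped (log2 difference 0.13). The test of the difference between the knockout effects in the 2 arms gave -0.38 (adjusted p = 0.975, edgeR). Ndufaf5, which modifies a complex I subunit during assembly, was at 12.4, 12.9 and 12.5 CPM in controls and 14.0, 15.1 and 16.8 in knockouts (log2 difference 0.27, adjusted p = 0.707, edgeR). Of the 85 members 3 had all baseline knockouts above all controls, Ndufaf1, Ndufaf5 and Atp5g2 (4.98% of all genes), and 2 had all of them below, Ndufa4l2 and Cox4i2 (6.84%). The differences of the last pair were -0.31 (adjusted p = 0.598) and -0.58 (adjusted p = 0.743) in edgeR. Of 9 smooth muscle, pericyte and renin genes 1 had a positive difference there (median -0.41, 0 called), and the 10 mesangial markers had a median of -0.04. The part of these cells in the 2 differences was not tested. Ndufs4, an accessory subunit whose loss causes complex I deficiency, had 0.41 (adjusted p = 0.707, edgeR) with overlapping groups.

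For 7 selected subunits the differences at baseline were 0.37 for Ndufs1, 0.26 for Ndufv1, 0.31 for Uqcrc1, 0.44 for Uqcrfs1, 0.50 for Cox5a, 0.26 for Atp5a1 and 0.27 for Atp5b, all with adjusted p of 0.802 or more in edgeR. With the tubule mean in the fit they were 0.07, 0.07, 0.06, 0.07, 0.09, 0.12 and 0.06 in that order. Cox5a moved from 0.50 to 0.09, but it has the steepest slope on the tubule mean in these same libraries. Its shift is therefore no separate result.

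After STZ, the differences between knockout and control glomeruli were small against their errors. None of the 85 was called (edgeR, 1.07% of all genes), none had an unadjusted p under 0.05 (edgeR, 9.08% of all genes), and DESeq2 called none (3.46% of all genes). The median log2 difference was 0.06 (positive for 62 of 85, against 46.6% of all genes, with a median SE of 0.24). It was 0.08 with the tubule mean in the fit, where 0 members were called (2.06%). By complex the medians were 0.05 (I), 0.02 (III), 0.08 (IV), 0.07 (V) and -0.04 (assembly factors). Each group held 1 library with high tubule and high member levels, control replicate 3 and knockout replicate 1. Without the former the median was 0.28 and without the latter -0.18. Among the members of smallest p were Cox6b2 (0.30, adjusted p = 0.717), Atp5s, which encodes coupling factor B (0.37, adjusted p = 0.750), Ndufa1 (0.29) and Atp5sl (-0.17) in edgeR. Cox6b2, at 2.24, 2.47 and 2.48 CPM in controls and 3.30, 2.50 and 3.04 in knockouts, was the 1 member whose groups did not overlap upwards (8.28% of all genes), and 0 members did so downwards (7.04%). The 7 selected subunits lay between -0.10 (Uqcrfs1) and 0.07 (Cox5a).

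STZ was compared with baseline within each genotype. The 2 arms differ in depth and in the filter of the deposited tables as well as in treatment, which cannot be told apart. The share of female mice read from Xist and Ddx3y differed too (2 of 3 in each baseline group, 0 of 3 STZ controls and 1 of 3 STZ knockouts). The labels give an age for the baseline mice only, and the unexplained hetN stands in the titles of the STZ controls. Age and the control genotype may thus differ between the arms as well. In controls 0 of 85 members were called (edgeR, 0.23% of all genes), and DESeq2 called 1, Ndufa4l2 (3.04% of all genes). In edgeR 2 of 85 had an unadjusted p under 0.05, Ndufa4l2 and Ndufaf6, against 12.6% of all genes. The median difference was 0.18, positive for 76 of 85 (53.7% of all genes), and 0.11 with the tubule mean in the fit (0 called, 0.349% of all genes). It was -0.01 without control STZ replicate 3, the library of that group with high tubule levels. In knockouts 0 members were called by edgeR (0.178% of all genes) and 0 by DESeq2 (5.97%). In edgeR 2 of 85 had an unadjusted p under 0.05, Atp5s and Ndufa4l2, against 14.7% of all genes. The median in knockouts was -0.01 with 38 of 85 positive (46.9% of all genes). There the covariate moved the median to 0.16, with 74 of 85 positive (50.1% of all genes) and 0 called (2.22% of all genes). Without knockout STZ replicate 1 the median was -0.25 and without knockout baseline replicate 3 it was 0.15.

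Ndufa4l2 was the member with the smallest p after STZ in both genotypes. In controls it lay below the baseline range, with 22.7 ± 1.44 CPM after STZ against 33.3 ± 1.56 at baseline (SD, n = 3), a log2 difference of -0.59 (SE 0.11). The adjusted p was 0.149 in edgeR's test of the 6 control libraries, which did not pass, 0.0423 in the edgeR fit of all 12 libraries, 0.0290 in that fit with the tubule mean, and 0.00142 in DESeq2. In knockouts the values were 21.3 ± 1.66 against 27.0 ± 2.12 CPM (SD, n = 3), a log2 difference of -0.36 (adjusted p = 0.244, edgeR). The tubule mean in the fit left both differences near their size, -0.60 and -0.38. The 10 mesangial markers also stood lower after STZ, with a mean log2 CPM of 8.41 to 8.73 at baseline and 7.30 to 7.90 after STZ and 1 of 10 called in controls (median -0.89). In knockouts their median was -0.80. Other lists shifted between the arms too, with 0 called in either genotype. The 12 endothelial markers had medians of -0.32 in controls and -0.53 in knockouts. The medians were 2.50 and 2.03 for 10 immune markers and 0.20 and 0.37 for 15 podocyte markers. Of the 10 genes of smooth muscle, pericytes and renin cells 9 were tested, with 0 called in either genotype. In controls 0 of 9 had a positive difference (median -0.38), while in knockouts 6 of 9 did (median 0.21). The mean log2 CPM of the 9 was 6.22, 6.02 and 6.35 in baseline controls, 5.82, 5.58 and 5.74 in baseline knockouts, 6.06, 5.74 and 5.82 in controls after STZ and 6.27, 5.93 and 6.59 in knockouts after STZ. The part of any of these cell types in the level of Ndufa4l2 was not tested. Cox4i2, the other member known from pericytes, had differences of -0.55 in controls (adjusted p = 0.468) and -0.12 in knockouts (adjusted p = 0.808) in edgeR, with overlapping groups.

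Upwards, 7 members had all STZ controls above all baseline controls, against 11.6% of all genes. They were the assembly factors Ndufaf1 and Ndufaf6 and the complex I membrane arm subunits Ndufb4, Ndufb5, Ndufb6, Ndufb8 and Ndufb9. Only Ndufa4l2 did so downwards (8.75% of all genes). Ndufaf6 was at 5.07, 5.59 and 4.89 CPM at baseline and 6.72, 7.18 and 10.7 after STZ in controls (log2 difference 0.63, adjusted p = 0.338, edgeR), and Ndufb4 at 79.6, 80.8 and 78.0 and 91.7, 93.4 and 147 CPM (0.45, adjusted p = 0.402). In knockouts 1 member lay wholly above baseline, Cox6b2 (12.9% of all genes), and 1 wholly below, Ndufa4l2 (9.59%). The differences of Ndufaf6 and Ndufb4 there were 0.10 and 0.15. Atp5s was at 8.02, 9.39 and 12.2 CPM in baseline knockouts and 14.3, 11.7 and 15.7 in STZ knockouts (0.47, adjusted p = 0.324, edgeR). The 7 selected subunits ran from 0.12 (Atp5b) to 0.33 (Ndufs1) in controls and from -0.26 (Uqcrfs1) to -0.0081 (Ndufv1) in knockouts. The comparisons within an arm and within a genotype share libraries and are not independent of each other.

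**Figure D5:**
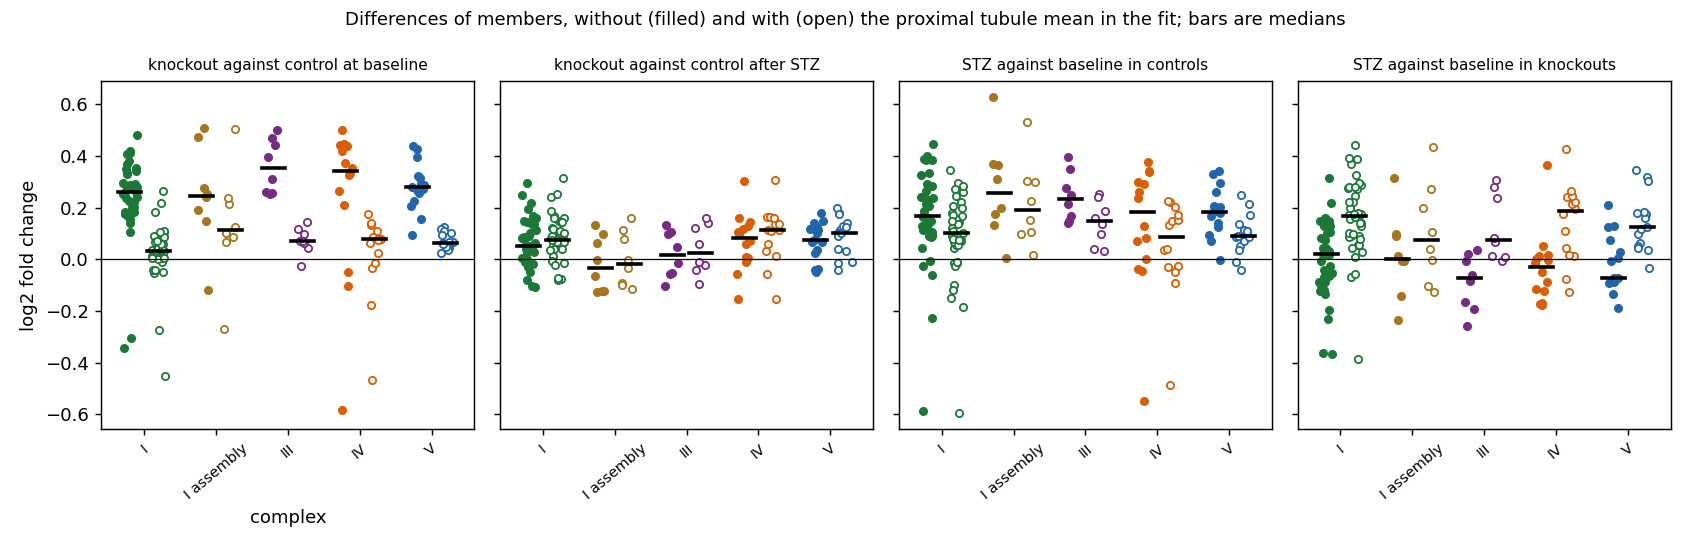
Log2 fold change of each member, by complex, in the 4 comparisons between groups, without (filled) and with (open) the proximal tubule mean in the fit. Black bars are medians. At baseline the medians of complexes I, III, IV and V move from 0.26 to 0.35 without the covariate to 0.03 to 0.08 with it, and in knockouts after STZ they move upwards.

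The knockout effect was compared between the arms in 1 fit over the 12 libraries. The interaction was called for 0 of 85 members by edgeR (0.00742% of all genes) and by DESeq2 (0.23%), and 0 had an unadjusted p under 0.05 (edgeR, 3.68% of all genes). Its median was -0.22, with 7 of 85 positive (44.9% of all genes). With the tubule mean in the fit the median was 0.07, with 59 positive (51.1% of all genes) and 0 called (0.0% of all genes). The direction thus turned with the covariate. The median standard error was 0.34 without and 0.17 with it, larger than the median effect of either fit in size. Among the other genes of respiration, no gene of complex II, the citric acid cycle, glycolysis, the further assembly factors or the regulators was called in any of the 4 comparisons between groups. Their medians at baseline were 0.36, 0.30, 0.14, 0.13 and 0.06 without the tubule mean and 0.10, 0.08, 0.07, 0.02 and -0.04 with it.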

How the data were processed

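Total RNA of glomeruli from 12 mice was sequenced, and the authors deposited 1 table of counts per gene symbol and library. The deposited values are estimated counts, not scaled to depth, and hold only whole numbers and values ending in 0.5. BWA and mm10 are named in the submitters' processing notes without a role. Neither the counting tool nor its annotation or strand setting is named. Of genes with 1 RefSeq transcript 0.161% had a value ending in 0.5, against 65.3% of those with 2, as a median over transcripts would give, so the value of a gene with several transcripts may not be their sum. Such values made up 9.02% of member values, in 16 members, and 53 members have 1 RefSeq transcript. Blanks were taken as 0, and values ending in 0.5 were rounded up for the tests.

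Replicates are different mice, and pairs of replicates differed by a chi-square of 42.0 or more per degree of freedom, so no pair agreed within sampling noise. Counts were filtered with filterByExpr, scaled by TMM and tested over all genes by quasi-likelihood in edgeR 4.0.16 (with limma 3.58.1 under R 4.3.3), with Benjamini-Hochberg adjustment and a threshold of 0.05. DESeq2 1.42.0 was an alternative. Knockout and control were compared on the 6 libraries of an arm, STZ and baseline on the 6 of a genotype, and the interaction and the slope on all 12 and 13475 genes. Levels are CPM, and set means are means of log2 CPM with a prior count of 2. The covariate is the centred mean log2 CPM of 24 proximal tubule genes. Standard errors were derived from the F statistic. Lengths are medians over the principal transcripts of a gene in GENCODE M21, and positions and promoters are from RefSeq (GRCm38.p6). Only the main edgeR fits, without the added covariate, were also run on simulated counts.

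Named in each comparison were called members of smallest p up to 10, or the 5 of smallest p where fewer than 5 were called, besides a fixed set of selected subunits, paralogues and assembly factors. For 1 member, which enters every count and median, no values of its own are reported here. The members and lists were chosen with earlier results of these data known. Replicate numbers follow the order of the samples and pair no mice. Alternatives were RLE size factors, DESeq2, no filter on low counts, the covariate, all 12 libraries in 1 fit, each arm alone, and each library left out in turn.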

Additional observations from a re-analysis of the deposited data

How the results depend on the processing

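The counts of members called between groups were 0 under every setting except for DESeq2 in the knockout comparison at baseline (1, Ndufaf1) and for STZ in controls (1 each with DESeq2, with all 12 libraries in 1 fit and with that fit and the tubule mean, Ndufa4l2 each time). Leaving out each library in turn kept them at 0. The count for the slope was 67 to 75 with 1 library left out, 33 with the STZ libraries alone and 32 without knockout baseline replicate 3 and control STZ replicate 3, whose tubule levels lie farthest from the median, and 64 members were called with each library left out. Slopes below threshold that changed sign were Cox4i2 (0.0200 with the STZ libraries alone), Cox7a2l (0.13 there), Ndufa4l2 (0.052 there and 0.024 without the same 2 libraries) and Atp5g2 (-0.0048 with the baseline libraries alone). With 1 library left out, the slope of Cox7a2l ran from -0.11 to 0.079 and that of Ndufa4l2 from -0.024 to 0.051, and the difference after STZ between genotypes ran from -0.0082 to 0.53 for Ndufa1 and from -0.31 to 0.0084 for Atp5sl. Medians over the members with 1 library left out ran from 0.09 to 0.45 for the knockout at baseline, -0.18 to 0.28 after STZ, -0.01 to 0.28 for STZ in controls, -0.25 to 0.15 for STZ in knockouts, -0.47 to -0.01 for the interaction and 0.25 to 0.30 for the slope. No paired analysis was possible because the labels give the groups no shared replicate numbers. Median standard errors were 0.18 to 0.25 for differences between groups of 3 mice, and the least abundant member had a median of 2.47 CPM over the 12 libraries.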

Other observations

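Cox7b2, a testis isoform of complex IV that matches the name rule, was listed in the STZ tables only and was not a member. It had counts of 18, 51 and 63 in the controls and 68, 58 and 114 in the knockouts of that arm, a log2 difference of 0.81 (SE 0.49, adjusted p = 0.759, edgeR's quasi-likelihood test with 3 mice a group), and the groups overlapped.

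The promoters of the 72 members with an entry had a median GC content of 58.0%, against 60.3% for those of measured genes and 52.7% for the whole table.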
